A study of Mus musculus with 8 samples.

Results

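The genes described here are 9 that let a macrophage take up antibody-coated or dying cells, namely Fcgr1, Fcgr2b, Fcgr3, Fcgr4, Fcer1g, Syk, Tyrobp, Mertk and Axl. They were chosen by name, and all 9 were found among the 23413 gene symbols counted. All 9 passed the filter on low counts in every comparison. RNA was sequenced from tumor-associated macrophages (TAMs) sorted as CD45+F4/80+CD11b+Gr-1- cells from subcutaneous B16F10 melanomas, a transplanted mouse tumor line, with 1 library per mouse. The hosts were male C57BL/6 (B6) mice 8 to 10 weeks old when they received the tumor cells. They were dosed 6 and 12 days later, and TAMs were sorted on day 18. Of the 8 mice, 2 received DMSO, the vehicle, 4 received thiostrepton, a thiopeptide antibiotic, by intraperitoneal (I.P.) injection, and 2 received 20 mg/kg thiostrepton subcutaneously (S.C.) beside the tumor. The I.P. dose of these 4 mice and the route of the 2 DMSO mice are not stated, so dose and route cannot be told apart. The question was how the expression of uptake genes compared between TAMs of treated and vehicle mice, and between the routes.

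Fcγ receptors bind the constant part of IgG. FcγRI (Fcgr1), FcγRIII (Fcgr3) and FcγRIV (Fcgr4) are activating receptors that need the common γ chain (Fcer1g), an adaptor that carries an ITAM. When IgG-coated targets cluster the receptors, Src-family kinases phosphorylate the ITAM and the kinase Syk docks on it, which starts actin assembly and engulfment. FcγRIIB (Fcgr2b) carries an ITIM and opposes this signal. DAP12 (Tyrobp) is the ITAM adaptor of other receptors, such as Trem2. Mertk and Axl are receptor tyrosine kinases that recognise phosphatidylserine on dying cells through bridging proteins, Gas6 for both and protein S for Mertk.

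Fcgr2b and Fcgr3 are near-identical in part of their coding sequence, which bears on how far their counts can be separated. In the GENCODE vM21 transcripts the longest run shared by both was 129 bases, at positions 278 to 406 of the Fcgr2b and 263 to 391 of the Fcgr3 coding sequence. It is printed here in capitals with 30 bases on either side.
Fcgr2b: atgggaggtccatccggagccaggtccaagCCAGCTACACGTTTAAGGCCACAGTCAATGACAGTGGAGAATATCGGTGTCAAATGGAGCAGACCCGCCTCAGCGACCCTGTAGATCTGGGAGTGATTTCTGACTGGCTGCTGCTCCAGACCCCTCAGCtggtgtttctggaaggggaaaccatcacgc
Fcgr3: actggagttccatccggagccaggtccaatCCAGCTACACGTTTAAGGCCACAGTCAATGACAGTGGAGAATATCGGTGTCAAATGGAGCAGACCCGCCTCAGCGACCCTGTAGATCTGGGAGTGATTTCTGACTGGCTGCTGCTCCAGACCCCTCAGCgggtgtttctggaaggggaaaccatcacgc
Of all 50-base windows in its exons, Fcgr2b shared 6.72% and Fcgr3 shared 10.2% with another gene, in each case mostly with the other of this pair. The other 7 genes shared none, and no other pair of the 4 receptors had a common coding run longer than 14 bases. Reads from the shared windows cannot be assigned to Fcgr2b or Fcgr3 by sequence, so small differences between these 2 genes are uncertain.

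The genes lie on 5 chromosomes of GRCm38, the assembly also called mm10. On chromosome 1, Fcgr2b (chr1:170958617-170976547), Fcgr4 (chr1:171018920-171029761), Fcgr3 (chr1:171051174-171064935) and Fcer1g (chr1:171229572-171234365) are neighbours. Fcgr1 is at chr3:96282909-96293969, Syk at chr13:52583173-52648792, Mertk at chr2:128698956-128802894, Tyrobp at chr7:30413760-30417585 and Axl at chr7:25757273-25788705. The 160 bases before the RefSeq start sites (GRCm38.p6) of the 3 activating receptors are shown because these receptors were compared mouse by mouse. For Fcgr3 a further start is not shown, whose stretch (chr1:171059395-171059554) overlaps the printed one. Both stretches lie inside the Fcgr3 span given above, so they do not precede the whole gene. Capitals mark matches on either strand to TTCNNNGAA, the form of the interferon-γ-activated site, and GAGGAAG, a form bound by the macrophage factor PU.1, which reads CTTCCTC on the other strand.
Fcgr1 (chr3:96293970-96294129, minus strand): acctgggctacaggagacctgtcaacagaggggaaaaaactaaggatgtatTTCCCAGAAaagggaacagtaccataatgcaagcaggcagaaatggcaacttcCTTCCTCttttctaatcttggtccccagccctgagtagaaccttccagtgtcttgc
Fcgr3 (chr1:171059404-171059563, minus strand): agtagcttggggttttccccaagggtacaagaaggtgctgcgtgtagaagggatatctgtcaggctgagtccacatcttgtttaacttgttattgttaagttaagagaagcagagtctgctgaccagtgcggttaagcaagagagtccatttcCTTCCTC
Fcgr4 (chr1:171018766-171018925, plus strand): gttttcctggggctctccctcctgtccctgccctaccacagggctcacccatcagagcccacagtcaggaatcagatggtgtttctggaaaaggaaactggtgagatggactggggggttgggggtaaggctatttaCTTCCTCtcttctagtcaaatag
Fcgr1 held both motifs, TTCNNNGAA from 109 bases before the start. Fcgr3 and Fcgr4 held GAGGAAG alone, as did Axl within 250 bases. Among the 250 bases before all 32851 RefSeq starts, 7.02% held TTCNNNGAA and 10.6% held GAGGAAG. Of the 9 genes, 8 had an entry and 4 held either motif. A match is a description of letters and no evidence of binding.

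Between 14127506 and 17577466 reads were counted on genes per mouse, and a floor of 3 counts, which covers counting error only, is 0.169 to 0.218 CPM, the count scaled to library depth (counts per 1000000). All 10 macrophage markers examined were counted in every mouse, and their sum was 7013 to 10104 CPM, with Cd68 highest. Levels of log2 CPM across genes correlated at 0.927 to 0.975 among the DMSO mice and I.P. mice 2 to 4. I.P. mouse 1 correlated at 0.830 to 0.884 with these, and the 2 S.C. mice at 0.767 with each other, so these 3 libraries stand apart. Their sample titles also carry the lowest numbers, and what the numbers mean is not stated. Both S.C. mice are among them, so in S.C. against DMSO treatment and this order cannot be told apart. For the values against DMSO, those without a mouse are given where they change a call or a direction. In bulk RNA, fewer cells of a type and less RNA per cell cannot be told apart.

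The adaptors were the most abundant of the 9 genes. Per length, Fcer1g averaged 2423 reads per kilobase scaled to depth as CPM are (RPKM) over the 8 mice and Tyrobp 2332, and Fcer1g was the higher in 5 of 8 mice. Fcgr3 followed at 980 RPKM, below Tyrobp and above Fcgr2b in 8 of 8 mice. Fcgr2b averaged 151 RPKM, Fcgr4 112, Fcgr1 65.0 and Axl 39.0. In each step from Fcgr2b down to Axl the higher gene was higher in 6 of 8 mice. Axl was above Syk (15.7 RPKM) in 7 mice, and Syk was above Mertk (13.7 RPKM) in 5. Syk and Mertk, like the 2 adaptors, therefore differed by less than their spread over mice. The order did not use the treatment, and lengths are the summed exons of each gene.

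**Figure D1:**
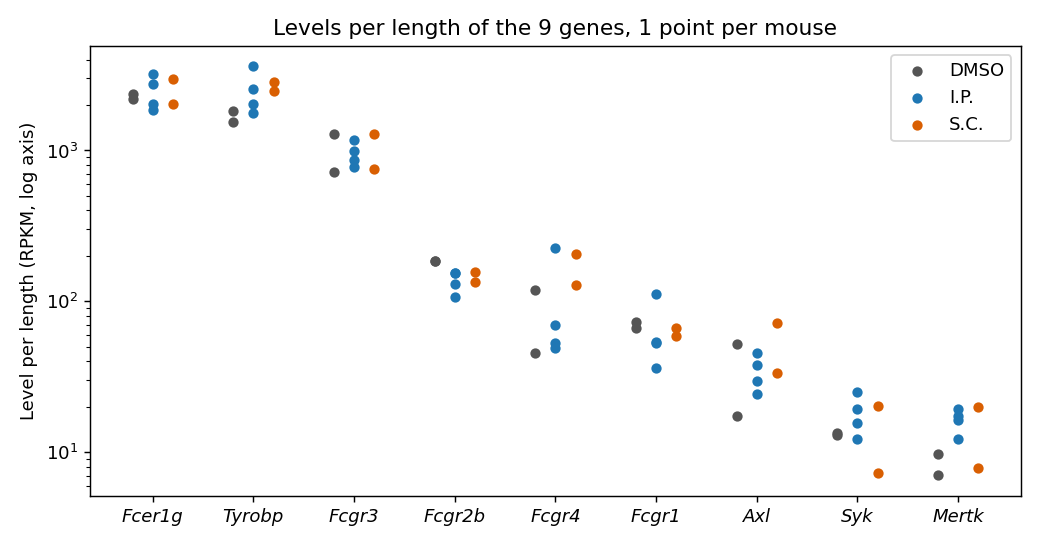
Level per length (RPKM, log axis) of each of the 9 genes, with 1 point per mouse coloured by group. Fcer1g and Tyrobp overlap at the top, Syk and Mertk overlap at the bottom, and Fcgr4 spans 45.5 to 224 RPKM.

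Fcgr1, the high-affinity IgG receptor, was at 173 and 188 CPM in the DMSO mice. In I.P. mice 1 to 4 it was at 138, 138, 291 and 92.9 CPM, and in the S.C. mice at 172 and 154 CPM. I.P. mouse 3 was above and the other I.P. mice below both DMSO mice, while both S.C. mice were just below them. The log2 fold change was -0.13 ± 0.41 (SE) by I.P. and -0.17 ± 0.29 by S.C. in edgeR's quasi-likelihood test, which was used throughout. Leaving out I.P. mouse 4 turned the former to 0.06. P under 0.05 here means the unadjusted P, which is read as a threshold, and adjusted p-values of the 9 genes lay between 0.966 and 0.9999 in both comparisons with DMSO. Groups that did not overlap in CPM were common, at 14.1% of all genes by I.P. and 34.3% by S.C.

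Fcgr3, the low-affinity activating receptor, was at 1722 and 969 CPM in the DMSO mice. It was at 1585, 1047, 1327 and 1165 CPM in the I.P. mice and at 1012 and 1731 CPM in the S.C. mice. The DMSO mice differed 1.78-fold from each other, and all 4 I.P. mice lay between them. The log2 fold changes were -0.08 ± 0.29 by I.P. and 0.01 ± 0.44 by S.C. Their direction turned with the mouse left out. The I.P. value was 0.40 without DMSO mouse 1, -0.43 without DMSO mouse 2 and 0.02 without I.P. mouse 2. The S.C. value was 0.47 without DMSO mouse 1, -0.36 without DMSO mouse 2, 0.34 without S.C. mouse 1 and -0.47 without S.C. mouse 2.

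Fcgr4, the activating receptor of mouse monocytes, macrophages and neutrophils, varied most from mouse to mouse, 4.93-fold between the lowest and the highest. It was at 150 and 57.1 CPM in the DMSO mice, 87.2, 61.4, 282 and 66.3 CPM in the I.P. mice and 161 and 258 CPM in the S.C. mice. I.P. mouse 3 was highest of all, the other I.P. mice lay between the DMSO mice, and both S.C. mice exceeded both DMSO mice. By I.P. the log2 fold change was 0.26 ± 0.67, but -0.54 without I.P. mouse 3 and -0.27 without DMSO mouse 2. By S.C. it was 0.99 ± 0.54 (2 of 2 mice above both DMSO mice). Without DMSO mouse 1 the S.C. value was 1.84 (P under 0.05) and without S.C. mouse 1 it was 1.29 (P under 0.05), so the call depends on single mice. In those fits 1.68% and 30.4% of all genes had P under 0.05. Neutrophils also carry this receptor, and the sort for Gr-1- cells was meant to remove them. The summed level of 11 neutrophil markers was 186 and 193 CPM in DMSO, 133 to 186 CPM in I.P. and 294 and 526 CPM in S.C. mice. S100a8 was at 6.46 and 64.7 CPM in the S.C. mice and at 1.63 to 21.2 CPM in the other 6. Of the 11 markers, 10 were above both DMSO mice in each S.C. mouse, and the part of these cells in the Fcgr4 values was not tested.

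The inhibitory receptor gene Fcgr2b was lower in each treated mouse than in each DMSO mouse. It was at 710.0 and 709 CPM in the DMSO mice, the closest pair of any of the 9 genes. Nearly any other value therefore lies above or below both. Groups did not overlap in 14.1% of all genes by I.P. and 34.3% by S.C., and the share for all treated mice together was not computed. Fcgr2b was at 585, 499, 583 and 408 CPM in the I.P. mice and at 596 and 512 CPM in the S.C. mice. The log2 fold change was -0.46 ± 0.23 by I.P. (4 of 4 mice below) and -0.38 ± 0.29 by S.C. (2 of 2 mice below). Neither passed P under 0.05. By I.P. it passed when libraries were scaled by size alone (-0.53, P under 0.05) and without I.P. mouse 1 (-0.51, P under 0.05), in fits that put 3.2% and 3.75% of all genes under that P.

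The adaptor gene Fcer1g was at 1636 and 1772 CPM in the DMSO mice. It was at 2392, 1517, 2053 and 1389 CPM in the I.P. mice and at 2214 and 1527 CPM in the S.C. mice. By either route some treated mice lay above and the others below both DMSO mice. The log2 fold changes were 0.10 ± 0.28 and 0.11 ± 0.32, and with libraries scaled by size alone the S.C. value was -0.04. Leaving out I.P. mouse 1 turned the former to -0.04, and leaving out S.C. mouse 1 turned the latter to -0.19.

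Syk, the kinase that docks on phosphorylated ITAMs, was at 80.3 and 78.5 CPM in the DMSO mice. It was at 150.0, 74.1, 94.1 and 116 CPM in the I.P. mice, 3 of 4 above both DMSO mice, with a log2 fold change of 0.44 ± 0.29. The S.C. mice split to either side of all other groups' means, at 43.7 and 122 CPM. Their log2 fold change was 0.04 ± 0.53, but 0.60 without S.C. mouse 1, -0.92 (P under 0.05) without S.C. mouse 2 and -0.12 with scaling by library size alone. In the fits without S.C. mouse 1 or 2, 30.4% and 34% of all genes had P under 0.05. Of the 10 macrophage markers, 4 were below and 4 above both DMSO mice in S.C. mouse 1, the low mouse. Emr1 (F4/80) was at 360 CPM there and Csf1r at 353 CPM, against 594 to 914 and 732 to 767 CPM in the DMSO mice, while Cd68 was at 3317 CPM and C1qa at 1653 CPM, against 2376 to 2694 and 1203 to 1246 CPM. Its summed macrophage markers, 8081 CPM, were above both DMSO mice, at 7422 and 7013 CPM. Its summed melanoma markers, led by Dct, were at 2986 CPM against 461 to 1671 CPM in the other 7 mice. The part of other cells in this library's values was not tested.

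Tyrobp, the gene of DAP12, was at 871 and 1022 CPM in the DMSO mice. It was at 2036, 1145, 1448 and 1006 CPM in the I.P. mice and at 1598 and 1397 CPM in the S.C. mice. All treated mice except I.P. mouse 4 were above both DMSO mice. The I.P. log2 fold change was 0.57 ± 0.31 and the S.C. value 0.64 ± 0.29, and neither passed P under 0.05. DESeq2 gave the S.C. difference as 0.66 (P under 0.05), in a fit with 6.23% of all genes under that P. Over all alternatives and mice left out the values stayed between 0.34 and 0.70 by I.P. and between 0.48 and 0.75 by S.C.

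Mertk was higher in TAMs of I.P. mice, and it was the only gene of the 9 with P under 0.05 there. It was at 30.3 and 42.0 CPM in the DMSO mice and at 52.8, 70.5, 83.5 and 74.9 CPM in the I.P. mice, with means of 36.1 ± 8.33 CPM (SD, n = 2) and 70.4 ± 12.9 CPM (SD, n = 4). All 4 I.P. mice exceeded both DMSO mice. The log2 fold change was 0.96 ± 0.28, or 1.94-fold, with an unadjusted P under 0.05 and an adjusted p of 0.980 by edgeR's quasi-likelihood test. It was short of the 2-fold change that the study asks of a differentially expressed gene (DEG), but past it without I.P. mouse 1 (1.08, P under 0.05) and without DMSO mouse 2 (1.22, P under 0.05). P stayed under 0.05 in 12 of 14 alternatives, whose adjusted p-values were 0.235 to 1, but not without DMSO mouse 1 (0.74) or with a block for same-numbered mice (0.76), a fit without I.P. mice 3 and 4. The S.C. mice were split, with S.C. mouse 1 at 33.6 CPM among the DMSO values and S.C. mouse 2 at 85.5 CPM, the highest of the 8. The S.C. log2 fold change was 0.70 ± 0.53, 1.21 (P under 0.05, adjusted p = 0.0216) without S.C. mouse 1 and -0.17 without S.C. mouse 2. In such a fit the lone S.C. mouse is assumed to vary like the DMSO mice, and without S.C. mouse 1 the fit put 1979 of 12210 genes under an adjusted p of 0.05.

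Axl, the related receptor, was at 225 and 74.2 CPM in the DMSO mice, a 3.03-fold difference between vehicle mice. It was at 103, 127, 194 and 161 CPM in the I.P. mice, all between the DMSO mice, and at 144 and 309 CPM in the S.C. mice. The I.P. log2 fold change was -0.03 ± 0.43 and the S.C. value 0.58 ± 0.64. Without DMSO mouse 1 the I.P. value became 0.98 and the S.C. value 1.58, the latter with P under 0.05, as 1.68% of all genes had in that fit. Without DMSO mouse 2 they became -0.62 and -0.02, so the direction of both values turned with the DMSO mouse left out. The I.P. value was also above 0 without I.P. mouse 1 (0.11) or 2 (0.03), and the S.C. value below 0 without S.C. mouse 2 (-0.11). Tyro3, the remaining gene of this family, averaged 0.157 CPM over the 8 mice.

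**Figure D2:**
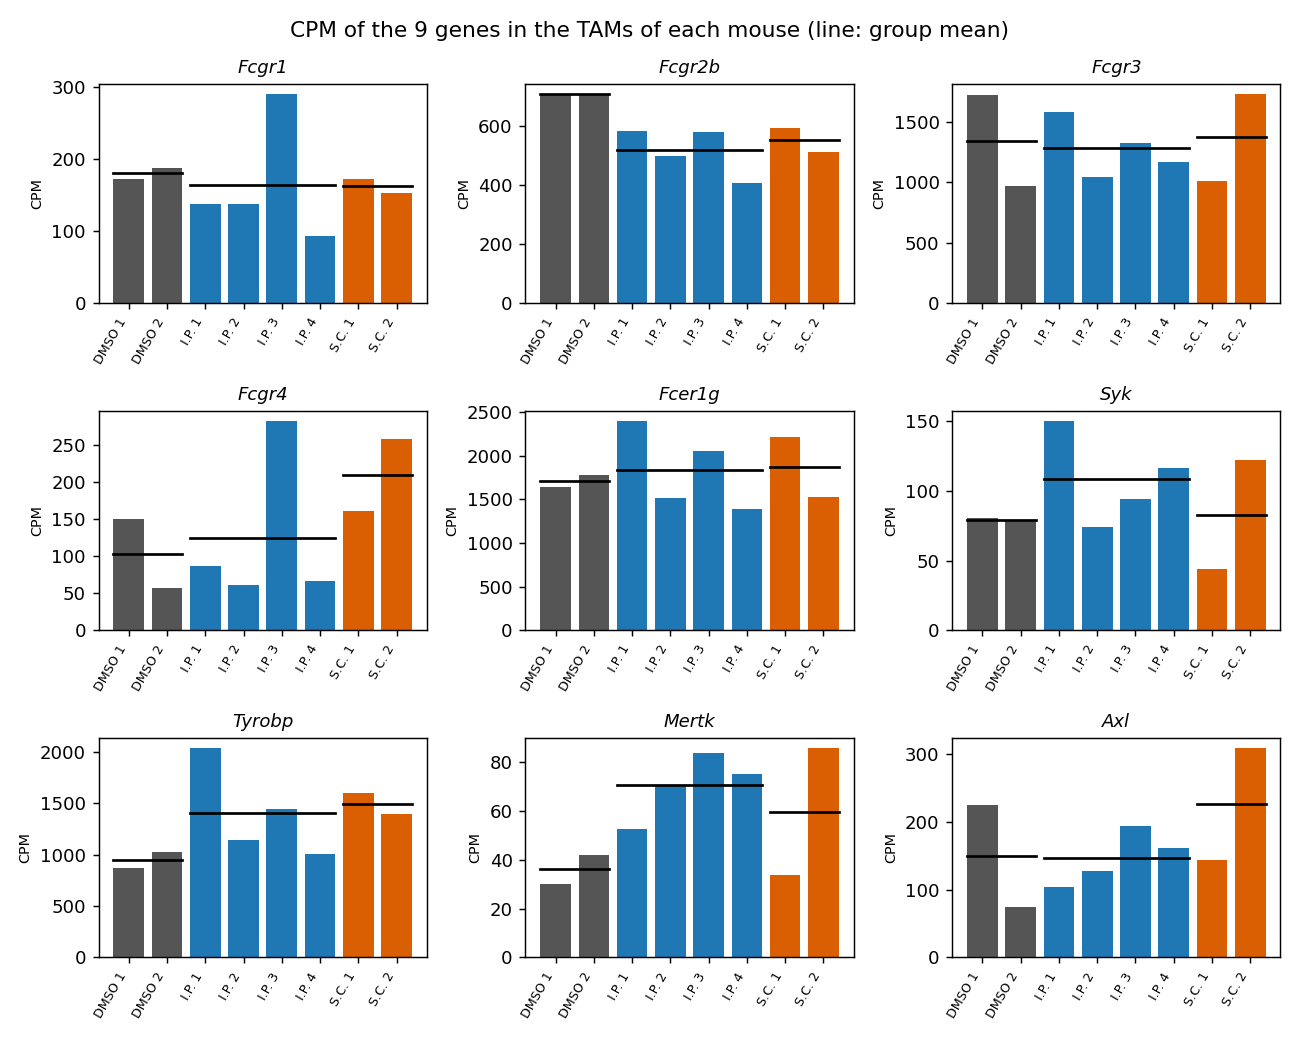
Bars give the CPM of each of the 9 genes in each mouse, coloured by group (DMSO grey, I.P. blue, S.C. orange), and black lines give group means. Fcgr2b is below both DMSO mice in all 6 treated mice, Mertk is above both in all 4 I.P. mice, and Fcgr3, Fcgr4 and Axl differ between the 2 DMSO mice.

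The median size of the log2 fold change of the 9 genes, its sign disregarded, came to 0.26 by I.P. and to 0.38 by S.C., against 0.27 and 0.38 for all genes. By I.P., 1 of 9 had P under 0.05 (Mertk), against 3.43% of the 12174 genes tested. None met the study's criterion for a DEG, both that P and 2-fold, against 2% of genes. By S.C., 0 of 9 had P under 0.05 in edgeR's quasi-likelihood test and 1 (Tyrobp) in DESeq2, against 5.41% of 11680 genes in the former, and 0 met the criterion, against 5.06%. An adjusted p under 0.05 was reached by 0 of 9 genes and by 0% of all genes in all 3 comparisons. Groups did not overlap in CPM for 2 of 9 genes by I.P. (Fcgr2b below, Mertk above), where 14.1% of all genes did not. By S.C. they did not overlap for 4 of 9, Fcgr1 and Fcgr2b below and Fcgr4 and Tyrobp above, where 34.3% of all genes did not. By I.P. the 9 genes had a median log2 fold change of 0.10, by S.C. of 0.11, and that of all genes 0.02 in both. With libraries scaled by size alone, the median of all genes by S.C. shifted from 0.02 to -0.13. The comparisons share the 2 DMSO mice, so the values of the 2 routes are not independent.

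TAMs of S.C. mice were also set against those of I.P. mice. The largest differences were in Fcgr4 (0.75 ± 0.61), Axl (0.63 ± 0.37) and Syk (-0.39 ± 0.45). The other 6 genes were between -0.24 and 0.10. Here 0 of 9 genes had P under 0.05, 0 met the 2-fold criterion and 0 had groups apart in CPM, against 8.59%, 7.05% and 18.5% of 12206 genes. Adjusted p-values were 0.719 to 0.997. Without I.P. mouse 3, Fcgr4 was 1.52 higher by S.C. on the log2 scale (P under 0.05). Without S.C. mouse 1, Axl was 1.07 higher (P under 0.05). Without S.C. mouse 2, Syk was at -1.32 (P under 0.05) and Mertk at -1.07 (P under 0.05). In these 3 fits, 6.24%, 17.3% and 18.2% of all genes had P under 0.05.

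**Figure D3:**
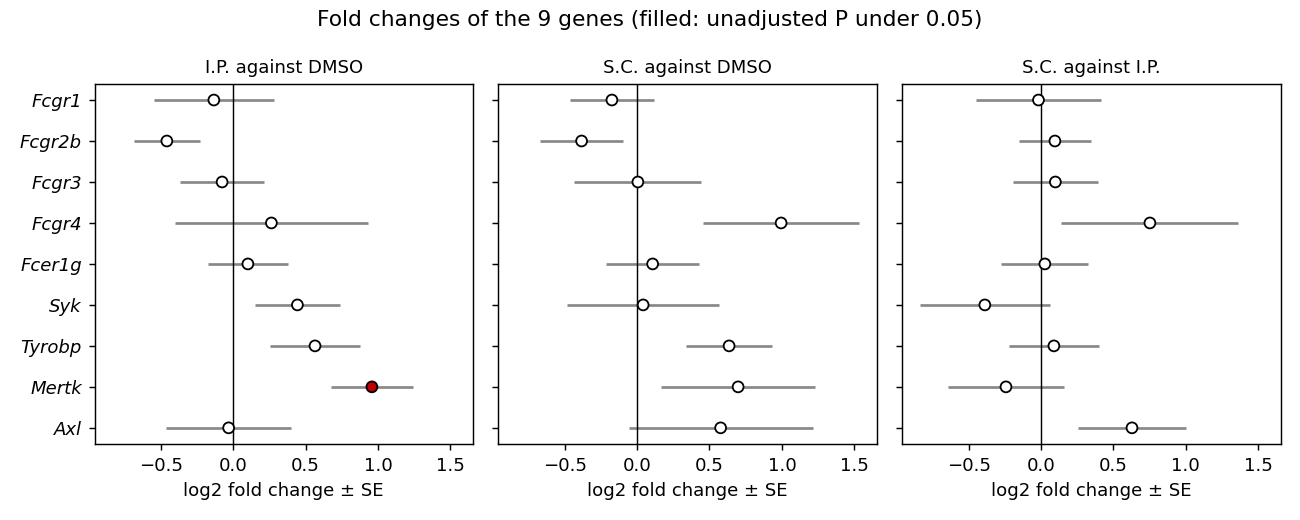
Log2 fold change (points) with its standard error (bars) for each gene in the 3 comparisons, filled where the unadjusted P was under 0.05. Mertk in I.P. against DMSO, at 0.96, is the only filled point.

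Ratios within a mouse do not depend on how libraries are scaled. Among the 36 pairs of the 9 genes, the 6 treated mice fell on the same side of both DMSO mice in 3, the 4 I.P. mice in 6 and the 2 S.C. mice in 13. Among all pairs of the 9231 genes averaging 5 CPM or more and counted in every mouse, 6.08%, 14.9% and 35.1% did so, so these counts are near those of any genes and are not a result about the 9. The 3 pairs are described by their values. Fcer1g was 1.42 and 1.31 times as abundant per length as Tyrobp in the DMSO mice. The ratio was 0.886, 0.999, 1.07 and 1.04 in the I.P. mice, and the S.C. mice had 1.04 and 0.824, so all 6 treated mice were below both DMSO mice. The ratio of Fcgr2b to Tyrobp was 0.121 and 0.103 in the DMSO mice, 0.0425 to 0.0645 in the I.P. mice, and the S.C. mice had 0.0552 and 0.0542. That of Fcgr2b to Fcer1g was 0.0852 and 0.0785 in the DMSO mice and 0.0480 to 0.0658 in the treated mice. The pairs share genes and were picked for this pattern, so no test was made.

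The summed activating receptors Fcgr1, Fcgr3 and Fcgr4 were 7.86 and 4.50 times Fcgr2b per length in the DMSO mice. They were 8.46, 6.72, 8.64 and 8.92 times Fcgr2b in the I.P. mice and 6.05 and 11.5 times in the S.C. mice, so the groups overlapped. The ratio of Mertk to Axl was 0.134 and 0.564 in the DMSO mice, 0.429 to 0.552 in the I.P. mice, and the S.C. mice had 0.232 and 0.276. The I.P. mice were above both S.C. mice, while the DMSO mice spanned both groups.

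**Figure D4:**
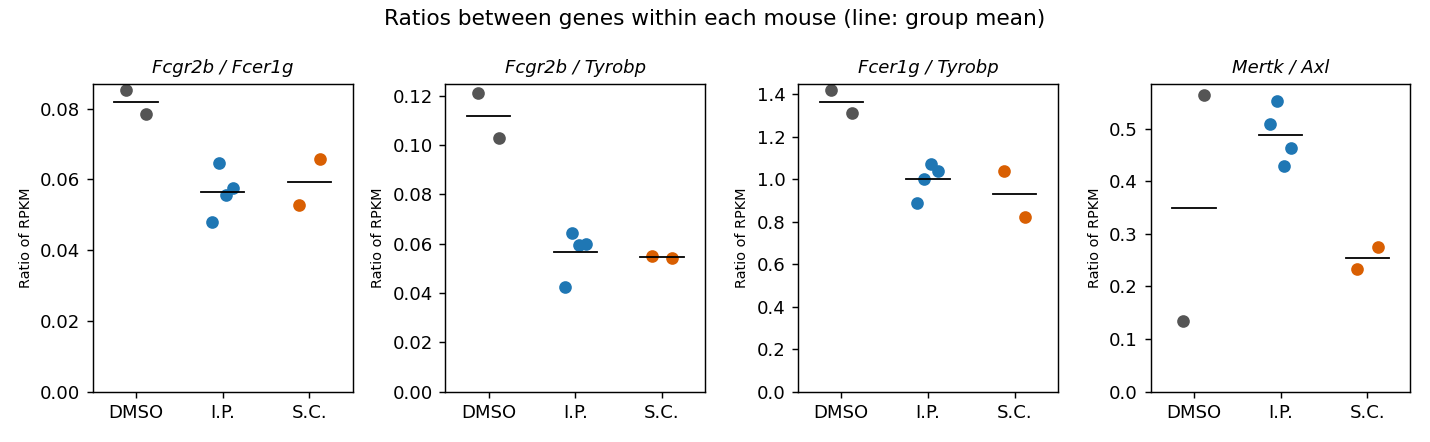
Ratios of RPKM between pairs of genes within each mouse, with 1 point per mouse and group means as lines. In the first 3 panels all 6 treated mice lie below both DMSO mice, and in the Mertk to Axl panel the DMSO mice, at 0.134 and 0.564, span all others.

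Genes around these 9 were taken from 6 lists. Of 12 other Fc receptor and IgG-binding genes only 5 were expressed enough to be tested. Fcrls was lower by I.P. (389 and 153 CPM on average in DMSO and I.P. mice, -1.35 ± 0.56, P under 0.05). Fcgrt, the receptor that recycles IgG, was lower by S.C. (278 and 156 CPM, -0.85 ± 0.33, P under 0.05). Adjusted p-values of list genes were not under 0.05 in any comparison. An unadjusted P under 0.05 was reached by 3.43% of all genes by I.P., 5.41% by S.C. and 8.59% in S.C. against I.P. mice.

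Among kinases and adaptors around Syk, 29 of 30 genes were tested against DMSO, with medians of 0.07 by I.P. and 0.15 by S.C. By I.P. 1 was higher and 1 lower, namely the ubiquitin ligase Cblb (0.87 ± 0.31, P under 0.05) and the PI3-kinase subunit Pik3cg (-0.63 ± 0.23, P under 0.05). By S.C. 2 were lower. Pik3cg was at -0.95 ± 0.35 (P under 0.05) and Sh3bp2, a Syk-binding adaptor, at -1.48 ± 0.50 (P under 0.05). Sh3bp2 was at 50.5 and 71.0 CPM in the DMSO mice, 75.2 to 100.2 CPM in the I.P. mice and 13.99 and 30.4 CPM in the S.C. mice. The 3 groups did not overlap, and S.C. against I.P. was at -1.95 ± 0.38 (P under 0.05, adjusted p = 0.252).

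Of 22 inhibitory receptor and phosphatase genes, Dok2, which dampens kinase signals, was lower by I.P. (356 and 171 CPM, -1.06 ± 0.24, P under 0.05). Lilrb3, the file's symbol for Pirb, was higher by I.P. (0.74 ± 0.29, P under 0.05). By S.C. only Cd300a, an ITIM receptor, passed (0.77 ± 0.29, P under 0.05). In S.C. against I.P. mice Pilra, Siglece and Dok2 were higher, by 0.95, 1.64 and 0.68. Medians of this list were 0.12 by I.P. and 0.11 by S.C.

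Receptors that pair with DAP12 had the highest medians of the 6 lists. Of 17 genes 16 were tested, and the medians were 0.32 by I.P. and 0.72 by S.C. against 0.02 for all genes. The I.P. median lies between Clec5a (0.01) and Cd244 (0.62), so without Hcst (1.17) and Cd244 it would be lower. Of the genes tested 9 had a positive value by I.P. and 15 by S.C., where 51.8% and 51.6% of all genes had. The I.P. count is near that share. Trem2, a lipid-sensing receptor and the most abundant of them, was at 392 and 422 CPM in the DMSO mice. It was at 574 to 779 CPM in the I.P. mice, all above (0.66 ± 0.23, P under 0.05), and at 513 and 514 CPM in the S.C. mice (0.31 ± 0.28). Plxna1 was higher by I.P. (0.74 ± 0.32, P under 0.05) and Sirpb1a by S.C. (1.51 ± 0.54, P under 0.05). Several genes of this list are also expressed by neutrophils and natural killer cells, such as Trem1 and Klrk1. NK and T cell markers summed to 25.8 and 9.30 CPM in DMSO, 2.80 to 20.2 CPM in I.P. and 44.3 and 37.4 CPM in S.C. mice. Of the 11 markers, 8 were above and 2 below both DMSO mice in S.C. mouse 1. In S.C. mouse 2, 5 were above and 2 below. The part of neutrophils and natural killer cells in the values of this list was not tested.

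Of the 27 partners of Mertk and Axl and other receptors for dying cells, 0 of 22 tested had P under 0.05 by I.P. The ligand genes Gas6 and Pros1 were at -0.19 and -0.54 by I.P. and at -0.85 and -0.80 by S.C. By S.C. 2 of 23 were higher and 1 lower at that P, against 5.41% of all genes. Mfge8, a phosphatidylserine-binding bridge, was at 10.4 and 12.5 CPM in the DMSO mice, 7.90 to 19.4 CPM in the I.P. mice and 66.6 and 49.3 CPM in the S.C. mice (2.32 ± 0.39, P under 0.05, adjusted p = 0.747). Itgax (CD11c) was at 2.41 ± 0.48 (P under 0.05) and the scavenger receptor gene Marco at -1.79 ± 0.61 (P under 0.05). Dendritic cells also express Itgax. Their markers summed to 43.6 and 15.9 CPM in S.C. mice against 5.35 to 19.1 CPM in the others. Of the 8 markers, 4 were above and 3 below both DMSO mice in S.C. mouse 1, and 3 above and 4 below in S.C. mouse 2. Ccr7 was at 11.6 and 3.28 CPM in the S.C. mice and at 0.230 to 2.16 CPM in the others, Cd209a was at 16.6 CPM in S.C. mouse 1 and at 0 in S.C. mouse 2, and Flt3 was at most at 0.218 CPM. The part of these cells in the Itgax values was not tested.

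All 34 genes of the phagocytic cup and phagosome were tested, with medians of -0.05 by I.P. and 0.01 by S.C. None passed by I.P. By S.C. Actr2, a subunit of the Arp2/3 actin nucleator, was lower (-0.86 ± 0.33, P under 0.05) and Gulp1, an engulfment adaptor, higher (2.16 ± 0.82, P under 0.05).

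In S.C. against I.P. mice 8.59% of all 12206 genes tested had P under 0.05, and the counts below stand beside that share. Of the inhibitory genes 3 of 22 were higher, and of the 30 kinase and adaptor genes 1 was higher (Lat) and 2 lower (Sh3bp2 and Src). Of the DAP12 list 2 of 16 were higher (Pilrb1 and Klrk1) and 1 lower (Plxna1). Of the receptors for dying cells 2 of 22 were higher (Itgax and Mfge8) and 2 lower (Marco and Lrp1). None of the 5 Fc receptor genes or of the 34 phagosome genes had P under 0.05. Adjusted over all genes, 0 of these passed. Lat and Src averaged under 1 CPM over the 8 mice, and Src had no count in either S.C. mouse.

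**Figure D5:**
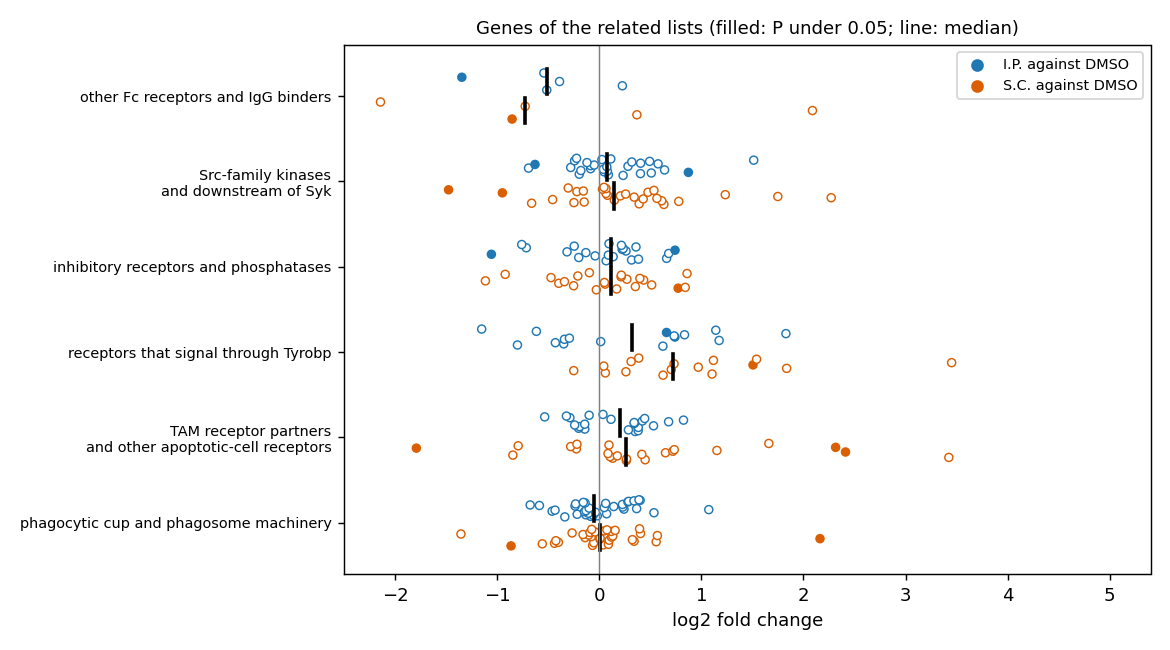
Log2 fold changes of the tested genes in 6 related lists by I.P. (blue) and S.C. (orange) against DMSO, filled where P was under 0.05, with black lines at the medians. The medians of the DAP12 (Tyrobp) list, which includes Hcst and Cd244, lie furthest above 0, at 0.32 and 0.72. Those of the phagosome list lie at -0.05 and 0.01.

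B cells carry Fcgr2b, and their markers summed to 20.3 and 10.6 CPM in DMSO, 8.81 to 21.0 CPM in I.P. and 31.2 and 25.5 CPM in S.C. mice. Most of each sum was Cd79b, except in S.C. mouse 1, where Cd79b was at 14.7 CPM. Of the 8 markers, 3 were above and 2 below both DMSO mice in each S.C. mouse. Cd79a was at 8.95 and 2.11 CPM in the S.C. mice and at 0 to 1.08 CPM in the others. Pax5, a defining gene of B cells, was at 0 in all 8 mice. Their part in the Fcgr2b values was not tested.

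Genes most like 3 of the 9 in their course over the 8 mice were sought among the 9327 genes averaging 5 CPM or more, by the root mean square distance of centred log2 CPM. Nearest to Mertk, whose own spread was 0.56, were Nav2 (distance 0.25), Lhfpl2 (0.28) and Syne1 (0.28). Nearest to Tyrobp, with a spread of 0.38, were Hmg20b (0.10) and Wfdc17 (0.11). Nearest to Fcgr4, with a spread of 0.87, were Bcl2a1a (0.27), Batf2 (0.28) and Sh2d1b1 (0.32). Batf2 was at 15.2 CPM in I.P. mouse 3, where Fcgr4 stood out, and at 4.32 to 6.12 CPM in the other I.P. mice. These genes were picked for closeness over the same mice, so a shared high mouse follows from the search. How near the closest gene falls for other genes was not computed. Bcl2a1a has close copies in the genome and its counts are uncertain.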

How the data were processed

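RNA-seq counts of sorted TAMs from 8 mice were used, with 1 library per mouse (KAPA mRNA HyperPrep). The authors deposited whole-number counts per gene symbol without normalization. Per the paper's methods reads were aligned to mm10 with bowtie2 and counted with RSEM, while the submitters' processing notes name TopHat2 and edgeR, so the aligner is uncertain. How reads matching Fcgr2b and Fcgr3 were shared depends on that step. Whole numbers do not show how RSEM's estimates were rounded.

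From these counts, genes were kept by filterByExpr (minimum count 10, minimum total count 15), scaled by TMM and tested per pair of groups with edgeR 4.0.16 (quasi-likelihood, two-sided, R 4.3.3). The SE of each log2 fold change was its absolute value over the root of F. P values were adjusted by Benjamini-Hochberg over all genes tested. RPKM were computed from CPM and GENCODE vM21 exon lengths; 93.0% of symbols matched. Depth was 14127506 to 17577466 counts. DESeq2 1.42.0 and the other alternatives are in the closing section. Of each related list, up to 3 genes with the smallest P under 0.05 per comparison were eligible to be named, or the smallest P where none passed. From marker lists these were the highest-expressed gene and the one with the smallest P. Other genes named (S100a8, Emr1, Csf1r, C1qa, Gas6, Pros1, Tyro3, Trem1, Klrk1, Hcst, Cd244, Cd79a, Pax5, Flt3, Ccr7, Cd209a) were picked for their role or after values were seen. Likeness was searched for the 2 members with the largest change in each comparison with DMSO. Members and lists were chosen with earlier results of these data known. The fits were tested on simulated data. Ly6g and Trac, on the marker lists, were not matched. Some genes that these rules name are not reported here.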

Additional observations from a re-analysis of the deposited data

Results flagged for a closer look

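Groups of 4 to 10 samples were screened for a sample far from the others by Dixon's test at 95%, which only the 4 I.P. mice allowed. Of 60 values screened 6 stood out, where chance gives about 1 in 20 for independent, normally spread values. Many of the 60 were genes picked by P in these data, and the ratios and sums reuse the same genes. That rate is therefore a rough guide only, and no excess is read from it. In I.P. mouse 3, Fcgr4 was at 282 CPM against 61.4 to 87.2 CPM in the other 3 I.P. mice, and the ratio of Fcgr4 to Fcgr2b per length was 1.47 against 0.373 to 0.493. In the same mouse Mfge8 was at 7.90 CPM against 17.6 to 19.4 CPM. I.P. mouse 1 was high in Cd14, at 850 CPM against 130.5 to 245 CPM, and in Ngp, at 2.17 CPM against 0 to 0.350 CPM. Gzma was at 0.350 CPM in I.P. mouse 4 and at 0 in the other I.P. mice.

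For 3 of 49 genes all I.P. mice lay to the same side of the DMSO mice, and the S.C. mice to the opposite side. None of the 9 uptake genes was among these 3. The 49 were the 9 genes and list genes, most of them picked for the smallest P in these same comparisons, which favours such a pattern. Its share over all genes was not computed, so the count is no result about these genes. Sh3bp2 was at -1.95 and Mmp8 at 1.21 in S.C. against I.P. mice on the log2 scale, with adjusted p-values of 0.252 and 0.402 by edgeR. Src had no count in either S.C. mouse, and its mean in I.P. mice, 0.811 CPM, was at least 3.71-fold higher than the larger S.C. floor of 3 counts in a library.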

How the results depend on the processing

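With 2 DMSO and 2 S.C. mice, many values of the 9 genes turn on single mice, and the causes were not tested. Of 369 recomputed log2 fold changes, 313 kept their direction and side of an unadjusted P of 0.05, 2 lost and 13 gained it, and 41 changed sign, 30 of these with a mouse left out. The values of Fcgr2b and Tyrobp against DMSO by either route, and of Mertk by I.P., changed sign under none. A fit that leaves a group with 1 mouse assumes that this mouse varies like the rest. By I.P., 2 genes had P under 0.05 with libraries scaled by size alone (Fcgr2b and Mertk), where 3.2% of all genes did. By S.C., DESeq2 gave 1 (Tyrobp), where 6.23% of all genes passed.

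The same number in 2 groups marks no shared origin in the labels, so the replicate numbers were not taken to pair mice. Deviations of same-numbered mice correlated at -0.187 to 0.169. In a group of 2 mice the deviations mirror each other, so swapping the numbers there only changes the sign. These correlations therefore cannot decide on pairing. With a block for the number, which leaves out I.P. mice 3 and 4, 0 genes had P under 0.05 by I.P., 0 by S.C. and 1 (Fcgr4, also past 2-fold) in S.C. against I.P. mice. Under that block Fcgr4 was at -0.35 by I.P. and Syk at -0.14 by S.C., and in S.C. against I.P. mice Fcgr1 was at 0.22, Fcer1g at -0.072 and Tyrobp at -0.052. A block with the S.C. numbers crossed was chosen after the data were seen, because same-numbered DMSO and S.C. mice correlated at -0.185. It gave 1 gene (Fcgr4) by P and 1 with 2-fold, where 4.67% and 4.07% of all genes passed, and Syk at -0.14.

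With libraries scaled by size alone, S.C. values against DMSO were -0.15 for Fcgr3, -0.043 for Fcer1g and -0.12 for Syk, and against I.P. they were -0.0023 for Fcgr2b and -0.065 for Fcer1g.

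With each mouse left out in turn, 0 to 2 genes had P under 0.05 in each of the 3 comparisons. The share of all genes with that P then ranged from 1.1% to 4.36% by I.P., from 0.928% to 34% by S.C. and from 5.7% to 18.2% in S.C. against I.P. mice, highest in the fits with 1 S.C. mouse, where 1 or 2 of 9 is near or below it. With 2-fold as well, leaving out an I.P. mouse gave 0 to 1 gene by I.P., where 1.54% to 3% of all genes passed. In S.C. against I.P. mice it gave 0 to 1, where 5.23% to 7.69% passed. In S.C. against DMSO every such fit leaves a group with 1 mouse, so no count with 2-fold is given. The ranges that follow cover each mouse left out in turn. Log2 fold changes then ranged, by I.P., from -0.56 to 0.063 for Fcgr1, -0.43 to 0.40 for Fcgr3, -0.54 to 1.12 for Fcgr4, -0.044 to 0.21 for Fcer1g and -0.62 to 0.98 for Axl. By S.C. they ranged from -0.47 to 0.47 for Fcgr3, -0.19 to 0.32 for Fcer1g, -0.92 to 0.60 for Syk, -0.17 to 1.21 for Mertk and -0.11 to 1.58 for Axl. In S.C. against I.P. mice they ranged from -0.22 to 0.38 for Fcgr1, -0.020 to 0.20 for Fcgr2b, -0.34 to 0.43 for Fcgr3, -0.27 to 0.26 for Fcer1g, -1.32 to 0.17 for Syk, -0.045 to 0.32 for Tyrobp, -1.07 to 0.28 for Mertk and -0.031 to 1.07 for Axl.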
